A study of Homo sapiens with 8 samples.

Results

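A375 cells that expressed the conserved region of the long noncoding RNA SLNCR1 by itself (group SLNCR1 cons) were compared with A375 cells that expressed SLNCR1 lacking that region (group SLNCR1 delta cons), gene by gene. The comparison covered the 12710 of 56638 table entries whose mean was at least 50 normalized reads with at least 1 of the constructs and above 0 in every group mean used. For each of them the authors' log2 ratio of construct to vector in the SLNCR1 delta cons table was subtracted from that in the SLNCR1 cons table. The same difference was tested on the single libraries with limma for 12686 of these genes. Of the other 24, 18 carry identifiers that spreadsheet software had turned into dates and 6 were ambiguous or repeated.

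A375 is a human line from a malignant melanoma of the skin that carries an activated BRAF kinase. All groups were grown in medium with 10% serum and transfected 24 h after seeding, with Lipofectamine 2000, with the same plasmid backbone, pcDNA3.1(-). The plasmid was empty (vector) or carried full-length SLNCR1, SLNCR1 delta cons or SLNCR1 cons, and cells were harvested 48 h later. Each group had 2 poly(A)-selected libraries, and no share of transfected cells is used here. This is a transient overexpression in 1 line, in which the cell's own SLNCR1 gene is still present.

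SLNCR1 has been tied to melanoma invasion and to the metalloproteinase MMP9, and part of the RNA is conserved between mammals. Setting the conserved region alone against the RNA without it asks which expression differences go with which piece of the RNA. Several known pathways come up in the results. Foreign RNA or DNA in the cytoplasm is read by sensors such as RIG-I, which lead to interferon and then to interferon-stimulated genes. Serum growth factors act through ERK on immediate early genes such as EGR1, and the circadian clock runs on a loop in which CLOCK and BMAL1 drive their own repressors. Oxygen shortage acts through HIF on glycolytic genes.

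Below, a denotes the deeper library of each group and b the shallower, because the deposited values do not show which is which replicate. Reads on the genes used numbered 11239857 and 10189720 with SLNCR1 cons, against 9099219 and 8142706 with SLNCR1 delta cons, so the constructs do not overlap in depth. Mitochondrially encoded genes held 0.143% and 0.156% of reads with SLNCR1 cons and 0.174% and 0.190% with SLNCR1 delta cons. Vector had 11914737 and 11220633 such reads, with mitochondrial shares of 0.134% and 0.143%. Full-length SLNCR1 had 10003064 and 9010862, with shares of 0.160% and 0.174%. The first principal component (41.2% of the variance) put SLNCR1 cons at -20.3 and -18.7, beside vector at -19.5 and -14.1, and SLNCR1 delta cons at 16.9 and 14.3, beside full-length SLNCR1 at 14.4 and 26.9. Library b of full-length SLNCR1 was the farthest from the rest on the second, at 24.0. Depth, mitochondrial share and construct move together here and cannot be told apart by this design. Nothing in the labels tells whether paired libraries were grown separately, so p-values cover only the spread of these samples, and part or all of it may be technical. The melanoma markers SOX10, CSPG4, MCAM and PRAME lay between 1521 (PRAME) and 6993 (CSPG4) normalized reads in all 8 libraries, whereas the pigment enzymes TYR and DCT were at most 5.05 in any.

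The tables have no entry named SLNCR1, and the nearest check of the transfected RNA is LINC00511, a noncoding gene of chromosome 17. RefSeq gives SLNCR1 as a synonym of LINC00673, whose whole span lies inside LINC00511 in GENCODE release 29. The sources used here do not name the annotation behind the tables, and so not which part of SLNCR1 the LINC00511 entry counts. LINC00511 stood at 628 and 621 normalized reads in vector libraries a and b, 865 and 886 with full-length SLNCR1, 1155 and 870.1 with SLNCR1 delta cons and 1052 and 1141 with SLNCR1 cons. All 4 libraries of the shortened constructs thus lay above both vector libraries, and the constructs overlapped with each other. SLNCR1 cons lay above vector in this way in 28.6% of genes. The authors' test against vector gave an adjusted p of 5.89e-15 with SLNCR1 cons and 0.145 with SLNCR1 delta cons. For SLNCR1 delta cons against vector limma gave an adjusted p of 0.000303. The difference between the constructs was 0.13 ± 0.10 (SE) on the log2 scale, with a limma adjusted p of 0.491. It turned to -0.079 when SLNCR1 delta cons library b was left out (limma adjusted p = 0.719), and the adjusted p stayed at or above 0.0681 in all 16 alternatives. No difference between the constructs in this entry was thus detected, and at that spread a small one could have been missed.

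Short stretches of promoter are shown for some called genes whose promoters hold known binding letters. Called genes without a match before the start were passed over, so these stretches do not show how common the letters are. Shares over the lists are given apart from them. They come from the RefSeq promoter table for GRCh38.p14 (250 bases before to 50 after each start), 5′ to 3′ on the strand given, while the reads were counted on hg19. Of 12710 genes, 9225 matched an entry of that table by symbol. The interferon-stimulated response element was searched as GAAANNGAAA on both strands, and capitals mark it in 6 interferon-stimulated genes.
DDX60, chr4:168318786-168318850, minus strand: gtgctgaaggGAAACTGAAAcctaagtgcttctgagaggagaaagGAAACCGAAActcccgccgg
IFI44L, chr1:78620274-78620394, plus strand: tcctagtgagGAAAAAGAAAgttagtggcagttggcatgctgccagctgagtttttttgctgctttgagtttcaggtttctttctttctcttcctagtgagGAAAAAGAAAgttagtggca
HERC5, chr4:88456984-88457064, plus strand: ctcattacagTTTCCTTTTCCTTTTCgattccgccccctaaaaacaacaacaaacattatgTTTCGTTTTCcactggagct
IFI27, chr14:94110618-94110660, plus strand: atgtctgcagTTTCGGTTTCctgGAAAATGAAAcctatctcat
SAMD9, chr7:93118096-93118125, minus strand: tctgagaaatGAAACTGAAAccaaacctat
PARP14, chr3:122680800-122680829, plus strand: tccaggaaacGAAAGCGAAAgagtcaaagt

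Capitals in the clock genes mark the E-box CACGTG, which CLOCK and BMAL1 bind, or the D-box TTANGTAA, which PAR bZIP factors such as HLF, TEF and DBP bind. In EGR1 they mark the CArG box, the site of serum response factor, a known mediator of serum induction of this gene. The CArG box was in 1 of 12 promoters of called immediate early genes, in 1 of 19 of those not called and in 1.29% of all promoters.
PER1, chr17:8152562-8152587, minus strand: cacccaggtcCACGTGcgcccgtgtg
BHLHE41, chr12:26125070-26125095, minus strand: gtacgttccgCACGTGagctgggtgc
TEF, chr22:41367250-41367275, plus strand: gcgacagctcCACGTGctgcagctgg
PER3, chr1:7784104-7784131, plus strand: agcccgcgcgTTATGTAAcgcgccccgg
CIART (entry C1orf51), chr1:150282415-150282512, plus strand: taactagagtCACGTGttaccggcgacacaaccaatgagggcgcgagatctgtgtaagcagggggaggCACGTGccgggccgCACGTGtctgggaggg
EGR1, chr5:138465364-138465415, plus strand: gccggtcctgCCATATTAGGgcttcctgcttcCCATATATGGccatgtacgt

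A gene was called when its limma adjusted p was under 0.05. Called genes leaned to higher levels with the conserved region alone. Of all 12686 differences, 6079 lay above 0 and 6607 below. In all, 872 of the 12686 genes (6.87%) were called higher with SLNCR1 cons and 177 (1.40%) higher with SLNCR1 delta cons. The background over all 16045 genes tested was 5.78% higher and 1.12% lower. Before adjustment, limma p-values under 0.05 numbered 1808 higher and 1260 lower. The sizes were unequal as well: 117 of the genes higher with SLNCR1 cons differed by more than 2-fold, and 1 of the lower genes did (ANGPTL4). Most called genes differed by less than 1.5-fold, 546 of those higher and 157 of those lower. The median of all 12686 differences was -0.01 on the log2 scale. The count of genes with higher levels was 423 and 494 without SLNCR1 delta cons library a or b, and 377 and 387 without SLNCR1 cons library a or b. The count of lower genes fell to 22, 40, 29 and 22 in the same fits. Without SLNCR1 library a or b, whose pair had the widest spread of the 4 groups, the counts were 1412 and 1395 higher and 676 and 719 lower.

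**Figure D1:**
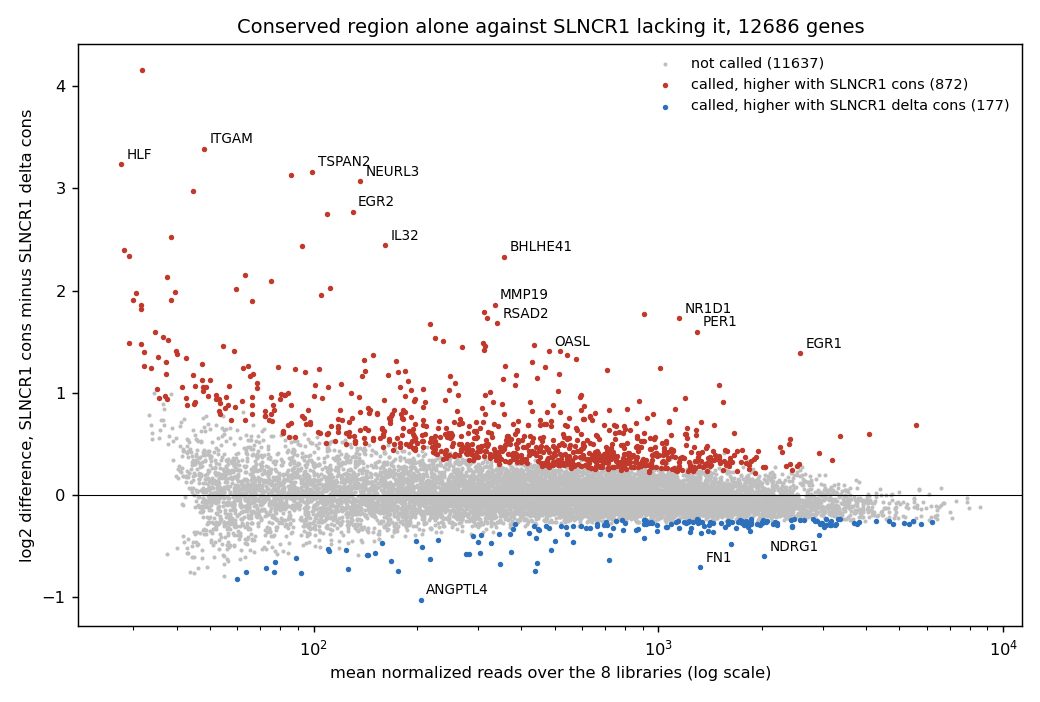
The log2 difference (SLNCR1 cons minus SLNCR1 delta cons, limma) is plotted against the mean normalized reads over 8 libraries (log scale), 1 point a gene, with called genes in red (872, higher with SLNCR1 cons) or blue (177, higher with SLNCR1 delta cons). The red points reach far above 1, and 1 blue point, ANGPTL4, lies below -1.

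The authors' own means give a like distribution without a model. Their log2 difference ran from -1.03 to 4.64 with a median of -0.02, and 117 genes lay above 1 and 1 below -1. The 173 genes just inside the threshold, with a higher mean between 50 and 55, had a median of -0.01, and the 219 just outside it, between 45 and 50, had a median of -0.02. Called genes also differed in base composition and length from the rest, by the longest GENCODE release 29 transcript. The genes higher with SLNCR1 cons had a median GC content of 43.8% and a median length of 4188 bases, those lower 54.4% and 2661.5 bases, and all tested genes 48.1% and 3756.5 bases. Over 5 equal bins of GC content, from the lowest to the highest, the share called higher went from 11.9% to 4.07% and the median log2 difference from 0.06 to -0.07. The part of base composition and length in the calls was not tested.

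Among named genes the largest differences were in genes of several kinds, all higher with SLNCR1 cons. ITGAM, the integrin alpha M chain of myeloid cells, had 99.8 and 114 normalized reads with SLNCR1 cons (libraries a and b, as throughout), 5.56 and 15.2 with SLNCR1 delta cons, 75.3 and 60.4 with vector and 8.05 and 6.62 with full-length SLNCR1. Its difference was 3.39 ± 0.34 (SE, limma adjusted p = 4.26e-06). TSPAN2, a tetraspanin, stood at 192 and 174 with SLNCR1 cons and 16.7 and 22.7 with SLNCR1 delta cons, a difference of 3.16 ± 0.22 (SE, limma adjusted p = 2.72e-08). NEURL3, a RING-type ubiquitin ligase, stood at 252 and 265 against 32.3 and 27.8, a difference of 3.07 ± 0.17 (SE, limma adjusted p = 1.5e-09). In these 3 genes the vector libraries were close to SLNCR1 cons (166 and 165 for TSPAN2 and 207 and 238 for NEURL3), and the full-length SLNCR1 libraries were close to SLNCR1 delta cons (22.1 and 34.2 and 38.2 and 32.0).

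The next genes by size were also high with vector and SLNCR1 cons and low with full-length SLNCR1 and SLNCR1 delta cons. PLA2G4C, a cytosolic phospholipase A2, had a log2 difference of 2.75, BEST1, a calcium-activated chloride channel, of 2.43, and PIK3IP1, an inhibitor of PI3 kinase, of 2.40. INHBE, an activin subunit, differed by 2.15 and ALOXE3, a lipoxygenase known from skin barrier lipids, by 2.02. The pseudogenes ASNSP1 (2.97) and CD99P1 (2.09) and the noncoding SFTA1P (2.01) were also among the 15 largest with a symbol in the reference names. Reads of ASNSP1 and CD99P1 can be shared with their parent genes, so their levels are uncertain. All 15 kept their call in every alternative that tested them. A further 5 called entries without such a symbol differed by more than SFTA1P, up to 4.15 by limma. Of these the clock gene CIART, listed under an older name, is described below and the others are not.

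ITGAM is also a leukocyte marker, so the whole marker list was read beside it. Of 11 leukocyte markers 4 had a mean of at least 10 reads and 5 a mean under 1, MS4A1 was at 0 in all 8 libraries and PTPRC at 0 in both SLNCR1 cons libraries. The summed markers ran from 222 to 223 normalized reads with SLNCR1 cons and from 112 to 144 with SLNCR1 delta cons. Without ITGAM the other 10 summed to 122 and 109 with SLNCR1 cons and 107 and 129 with SLNCR1 delta cons, so the difference in the sum was that of ITGAM. The summed keratinocyte markers (917 to 1017 with SLNCR1 cons, 1029 to 1039 with SLNCR1 delta cons) did not overlap, fibroblast markers (706 to 906, 854 to 872) did, and endothelial markers (355 to 363, 404 to 443) did not. Most of the endothelial sum was TIE1, at 256 and 270 with SLNCR1 cons and 338 and 306 with SLNCR1 delta cons. TIE1 was the only endothelial marker in the comparison and was not called. Within the fibroblast list the collagen genes set libraries of 1 construct apart. COL3A1, a fibrillar collagen, had 53.4 and 2.0 normalized reads with SLNCR1 cons and 51.2 and 45.5 with SLNCR1 delta cons, against 3.55 to 4.41 in the vector and full-length SLNCR1 libraries. COL1A2 (37.4 and 6.0 with SLNCR1 cons, 31.2 and 26.5 with SLNCR1 delta cons) and COL1A1 (276 and 139, 248 and 261) were low in the same SLNCR1 cons library b. In bulk RNA, fewer cells of a type and less RNA per cell cannot be told apart. The part of other cells in the results was not tested.

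Genes of the circadian clock were higher with the conserved region alone. Of 13 clock repressors and their regulators 10 were called higher and 0 lower (0 also at p under 0.05 before adjustment by limma and 0 by limma voom), with a median log2 difference of 0.76 against -0.01 for all genes. PER1, a light- and serum-inducible repressor of CLOCK and BMAL1, had 1986 and 1999.8 normalized reads with SLNCR1 cons, 661 and 657 with SLNCR1 delta cons, 1789.6 and 2018 with vector and 596 and 641 with full-length SLNCR1. The vector and SLNCR1 cons libraries were high and the other 4 low, with no overlap. The difference was 1.60 ± 0.07 (SE, limma adjusted p = 2.4e-10). PER2 had 502 and 480.0 reads with SLNCR1 cons and 140.2 and 143 with SLNCR1 delta cons (log2 difference 1.79 ± 0.10, SE, limma adjusted p = 2.27e-09), and PER3 had 226 and 269 and 99.0 and 98.5 (log2 difference 1.31 ± 0.13, SE, limma adjusted p = 2.9e-06). All period genes were thus higher with SLNCR1 cons, with no overlap between the constructs.

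NR1D1 encodes REV-ERB alpha, the nuclear receptor that represses BMAL1. It stood at 1775 and 1866 normalized reads with SLNCR1 cons, 553 and 546 with SLNCR1 delta cons, 1626 and 1725 with vector and 569 and 529 with full-length SLNCR1, and the difference was 1.73 ± 0.07 (SE, limma adjusted p = 7.66e-11). BHLHE41, or DEC2, an E-box repressor, stood at 569 and 605, 135 and 99.8, 577 and 643 and 109 and 109 in the same order of groups, a difference of 2.33 ± 0.12 (SE, limma adjusted p = 1.35e-09). Its close relative BHLHE40 showed no such pattern, with 1272 and 1286 against 1274 and 1270.4 and a log2 difference of 0.01 ± 0.07 (SE, limma adjusted p = 0.967). CIART, a repressor listed as C1orf51, had 51.7 and 76.0 reads against 8.9 and 11.4 (log2 difference 2.52 ± 0.34, SE, limma adjusted p = 0.000104). The cryptochromes CRY1 (0.76) and CRY2 (0.73) and the receptor NR1D2 (0.68) were also among the called repressors. The kinases CSNK1D and CSNK1E were not called.

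Output factors of the clock were in part higher as well. Of 10 PAR bZIP factors and clock activators 5 were called higher. HLF had 47.2 and 57.0 normalized reads with SLNCR1 cons, 5.56 and 3.79 with SLNCR1 delta cons, 54.3 and 46.2 with vector and 5.03 and 2.21 with full-length SLNCR1. It was near the low end of counting where it was low, and its difference on the log2(normalized reads + 1) scale was 3.24 ± 0.37 (SE, limma adjusted p = 1.97e-05). TEF stood at 509 and 505 against 228 and 196 (log2 difference 1.26 ± 0.10, SE, limma adjusted p = 1.82e-07) and DBP at 539.8 and 599 against 280.4 and 234 (log2 difference 1.15 ± 0.10, SE, limma adjusted p = 6.06e-07). The activator gene ARNTL, which encodes BMAL1, differed by 0.45 and NFIL3, a repressor at D-boxes, by 0.38, and both lost their call without a library of their own groups (ARNTL without SLNCR1 delta cons a, SLNCR1 cons a or b, NFIL3 without any of the 4), which left as few as 3 called. CLOCK, NPAS2, ARNTL2, RORA and RORB were not called. Among promoters of the repressors in the table, 4 of 11 held the E-box and 2 of 11 the D-box, against 7.26% and 2.18% of all 35116 promoters. In compared genes that were not called the shares were 10.0% and 1.04%. Among promoters of the PAR bZIP factors and activators, 1 of 10 held the E-box and 0 of 10 the D-box. These letters describe the windows and show no binding.

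**Figure D2:**
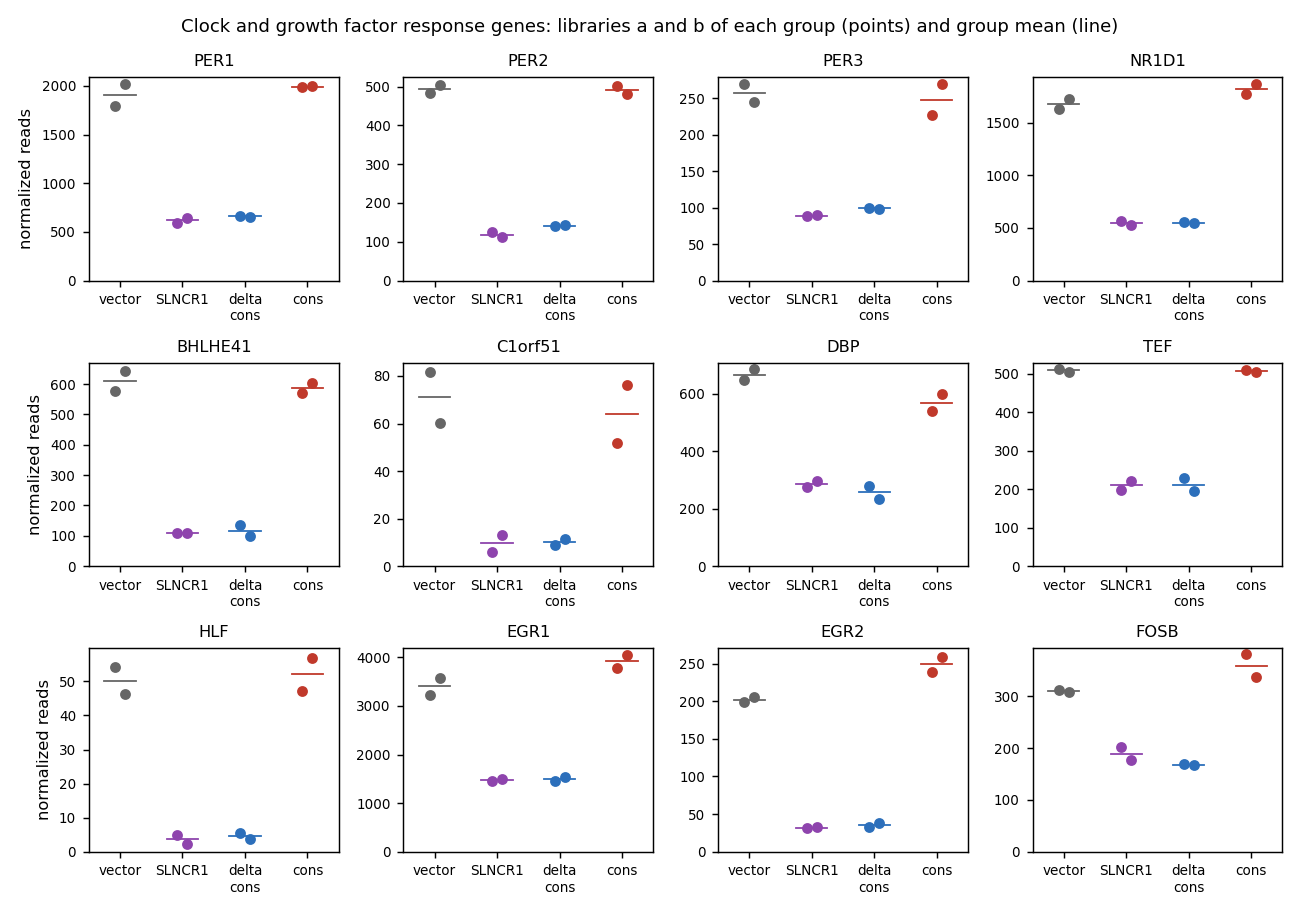
Normalized reads (linear axis from 0) of 12 clock and growth factor response genes are plotted for libraries a and b of each group (points) with the group mean (line). In each panel vector and SLNCR1 cons are high and full-length SLNCR1 and SLNCR1 delta cons are low.

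EGR genes showed the same order of groups. Of 39 immediate early transcription factors and related genes 14 were called higher with SLNCR1 cons and 0 lower (5 lower at p under 0.05 before adjustment by limma, 0 by limma voom), with a median log2 difference of 0.06. EGR1, a zinc finger factor induced by serum through ERK and serum response factor, had 3779 and 4058 normalized reads with SLNCR1 cons, 1453 and 1539 with SLNCR1 delta cons, 3228 and 3586 with vector and 1465 and 1499 with full-length SLNCR1. The difference was 1.39 ± 0.07 (SE, limma adjusted p = 9.34e-10). In the authors' deposited table EGR1 was lower with SLNCR1 delta cons than with vector by a log2 of -1.19 (adjusted p = 2.09e-23), and with SLNCR1 cons it was 0.19 above vector (adjusted p = 1.0). EGR2 stood at 239 and 259 against 33.4 and 37.9 (log2 difference 2.77 ± 0.16, SE, limma adjusted p = 2.27e-09), FOSB at 382 and 337 against 169 and 167 (log2 difference 1.09 ± 0.11, SE, limma adjusted p = 3.12e-06) and KLF10 at 1696 and 1746 against 1015 and 1078 (log2 difference 0.72 ± 0.07, SE, limma adjusted p = 1.83e-06).

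The response was not shared by the whole class. EGR4 (1.41), NR4A3 (0.88, limma adjusted p = 0.0468), KLF4 (0.68), ATF3 (0.60) and BTG2 (0.53) were called, as were KLF11, MAFF, ZFP36, MAFK and FOS. EGR3 had 169 and 168 normalized reads with SLNCR1 cons against 186 and 170.5 with SLNCR1 delta cons, and its difference was -0.08 ± 0.12 (SE, limma adjusted p = 0.772). JUN (log2 difference 0.13 ± 0.08, SE, limma adjusted p = 0.391) and IER2 (log2 difference 0.04 ± 0.08, SE, limma adjusted p = 0.849), which serum induces along with EGR1, were not called either, nor were SRF, JUND and NR4A1. The count was 9 without SLNCR1 cons library b, and FOS (log2 difference 0.29 ± 0.08, SE, limma adjusted p = 0.0438) lost its call in 7 of 16 alternatives. Of 28 genes of ERK feedback and output, DUSP8 was higher with SLNCR1 cons (log2 difference 1.68 ± 0.14, SE, limma adjusted p = 6.06e-07) and DUSP2, DUSP4 and HMGA2 lower. DUSP8 is a phosphatase of JNK and p38, whereas the ERK-induced SPRY2, SPRY4, DUSP6 and ETV4 were not called. DUSP4 (-0.25), DUSP2 (-0.59) and HMGA2 (-0.29) were lost in part or in whole without a construct library: 0 lower calls were left without SLNCR1 delta cons a, SLNCR1 delta cons b or SLNCR1 cons a, and 1 without SLNCR1 cons b.

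Interferon-stimulated genes were for the most part higher with SLNCR1 cons. Of 46 effector genes 36 were called higher with SLNCR1 cons and 0 lower (1 lower at p under 0.05 before adjustment by limma, 0 by limma voom), with a median log2 difference of 0.67. RSAD2, the antiviral enzyme viperin, had 556 and 622 normalized reads with SLNCR1 cons, 234 and 143 with SLNCR1 delta cons, 338 and 386 with vector and 208 and 236 with full-length SLNCR1. Vector libraries lay between the constructs, and the constructs did not overlap. The difference was 1.68 ± 0.16 (SE, limma adjusted p = 1.81e-06). OAS2 makes the activator of RNase L when double-stranded RNA switches it on. It stood at 2030.1 and 2292, 1254 and 829.7, 1596 and 1694 and 1059 and 1258 in that order of groups (log2 difference 1.08 ± 0.13, SE, limma adjusted p = 2.97e-05). MX1, a GTPase that blocks influenza viruses, stood at 1990.0 and 2167, 1315 and 922, 1564 and 1748 and 1117 and 1477 (log2 difference 0.91 ± 0.13, SE, limma adjusted p = 0.0002). IFIT2, which binds foreign RNA, had 672 and 764 against 404 and 222 (log2 difference 1.25 ± 0.17, SE, limma adjusted p = 0.00013). In contrast to the clock genes, levels with SLNCR1 cons lay above vector as well, a rise that the authors' test called in 5 of the 46 genes.

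This position held over much of the list. In 43 of 46 genes both SLNCR1 cons libraries lay above both vector libraries (28.6% of all genes did), in 32 both SLNCR1 delta cons libraries lay below both (25.8% of all genes) and in 29 both full-length SLNCR1 libraries did (25.2%). The median log2 values against vector, which share the vector libraries, were 0.29 for SLNCR1 cons, -0.40 for SLNCR1 delta cons and -0.27 for full-length SLNCR1. Against vector, the authors' test called 5 of the 46 higher with SLNCR1 cons, and 6 lower and 1 higher with SLNCR1 delta cons. The libraries of a construct were not alike: the median log2 ratio of SLNCR1 delta cons library a to b was 0.36 over the list, against -0.01 for all genes, and library b was the lowest of the 8 in 33 of the 36 called genes. CMPK2, a mitochondrial nucleotide kinase, had 253 and 116 normalized reads in the SLNCR1 delta cons libraries, 439 and 527 with SLNCR1 cons and 338 and 351 with vector. The number called nonetheless ranged from 28 to 39 over the 16 alternatives. The genes not called were RTP4, IFI35, IFI6, TRIM25, UBE2L6, ISG20, GBP2, IFITM2, IFITM3 and LGALS3BP. LGALS3BP stood at 3248 and 3521 with SLNCR1 cons and 3869 and 3990.5 with SLNCR1 delta cons (log2 difference -0.22 ± 0.07, SE, limma adjusted p = 0.0884).

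**Figure D3:**
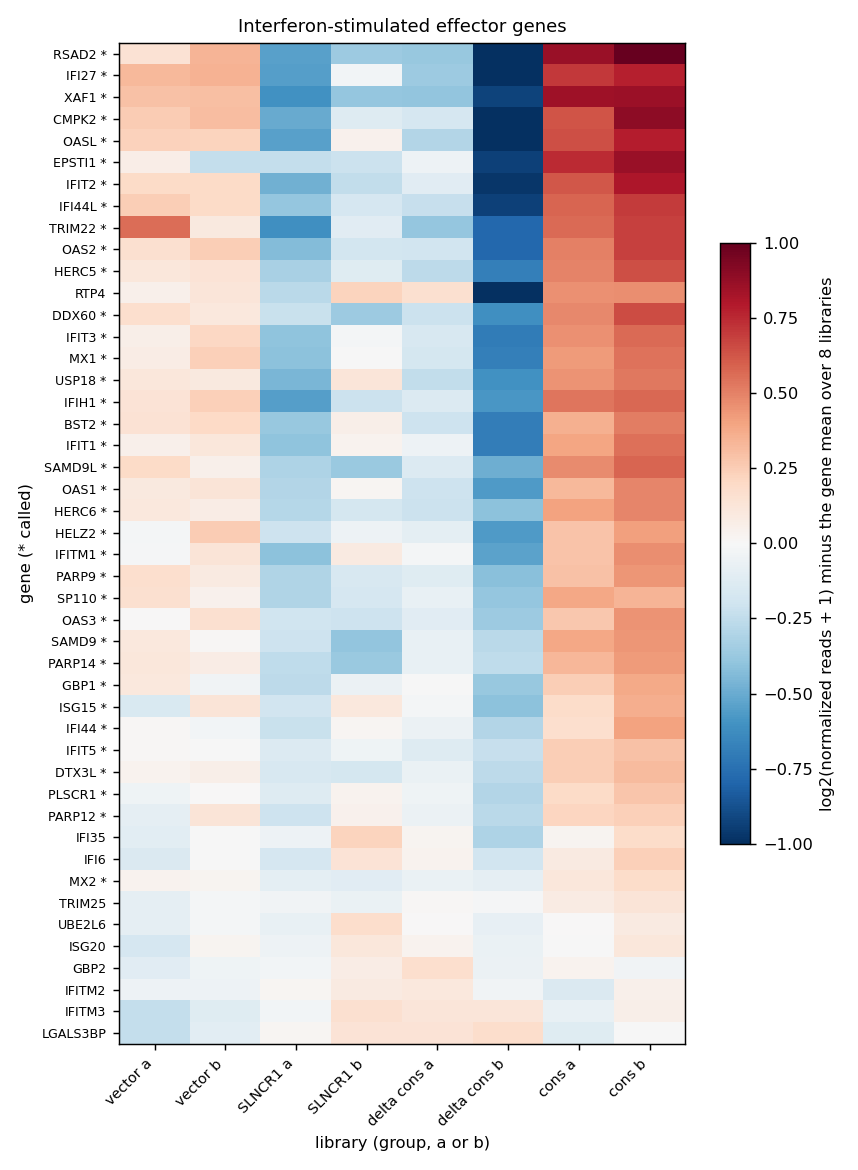
Each row is 1 of 46 interferon-stimulated effector genes and each column a library; colour is log2(normalized reads + 1) minus the gene's mean over the 8 libraries, and stars mark the 36 called genes. Both SLNCR1 cons columns are red and SLNCR1 delta cons library b is the deepest blue for most starred genes.

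The response element shown above was found in 26 of the 38 promoters of this list in the table (68.4%), against 3.57% of all promoters. It was in 21 of 30 promoters of called genes and in 5 of 8 of the others. Of 25 sensors and signalling genes, 10 were called higher, with a median of 0.29. DDX58, which encodes the RNA sensor RIG-I, had 1434 and 1618 normalized reads with SLNCR1 cons, 813 and 509 with SLNCR1 delta cons, 1117 and 1065 with vector and 709 and 822 with full-length SLNCR1 (log2 difference 1.24 ± 0.14, SE, limma adjusted p = 1.47e-05). The related helicases IFIH1 (0.91), also counted among the effectors, and DHX58 (0.88), and the transcription factors IRF1 (0.78) and IRF7 (0.75) were called too. STAT2 (0.33) lost its call without library b of either construct, and the count was 5 without SLNCR1 delta cons library b and 6 without SLNCR1 cons library b. IRF3, MAVS, TBK1, JAK1, TYK2 and the receptor chains IFNAR1 and IFNAR2 were not called.

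Genes of antigen presentation by MHC class I, another interferon target, had a median difference like that of all genes. Of 18 genes TAP1, a peptide transporter (log2 difference 0.47 ± 0.09, SE, limma adjusted p = 0.00208), and HLA-F (log2 difference 0.70 ± 0.18, SE, limma adjusted p = 0.0249) were called higher, and the list's median was -0.01. TAP1 lost its call without SLNCR1 delta cons library b and HLA-F without any of the 4 construct libraries. B2M, the invariant chain of class I molecules, stood at 1357 and 1473 normalized reads with SLNCR1 cons and 1526 and 1566 with SLNCR1 delta cons. The response element was in 9 of the 15 promoters of this list, so its letters were common in a list of which 2 genes were called. HLA genes are near-identical in part, and the sources used here do not say how shared reads were counted.

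NF-kB genes were in part higher with SLNCR1 cons. Of 20 subunits and targets 9 were called higher, with a median of 0.22. TRAF1 and BIRC3, which sit in the TNF receptor complex, differed by 1.42 and 1.41, and the inhibitor NFKBIE by 1.37. RELB, a subunit of the noncanonical pathway, had 1471 and 1523 normalized reads with SLNCR1 cons, 909 and 986 with SLNCR1 delta cons, 1364 and 1437 with vector and 956 and 1045 with full-length SLNCR1 (log2 difference 0.66 ± 0.07, SE, limma adjusted p = 1.01e-05). NFKB2, its partner, differed by 0.50. RELA, NFKB1, ICAM1 and SOD2 were not called, and NFKBIA, a rapid target of the pathway, stood at 721 and 781 against 677 and 687 (log2 difference 0.14 ± 0.08, SE, limma adjusted p = 0.313). The count was 7 to 11 in the alternatives.

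Cytokines went both ways. IL32 had 283 and 311 normalized reads with SLNCR1 cons, 55.6 and 51.8 with SLNCR1 delta cons, 220.3 and 223 with vector and 74.5 and 67.3 with full-length SLNCR1, a difference of 2.45 ± 0.14 (SE, limma adjusted p = 1.77e-09). CSF1, the macrophage growth factor, was higher by 0.36. IL8, a neutrophil chemokine and NF-kB target, was lower with SLNCR1 cons, at 888 and 897 against 1079 and 1199.7 (log2 difference -0.35 ± 0.08, SE, limma adjusted p = 0.00714), and IL24 was lower at 814 and 834 against 1010.3 and 1199.7 (log2 difference -0.42 ± 0.08, SE, limma adjusted p = 0.0025). The vector libraries of IL8 (692 and 701) and IL24 (716 and 705) lay below every construct library. The other 11 of the 15 genes, CXCL1, IL6 and IL1B among them, were not called. CSF1 lost its call without SLNCR1 delta cons b or SLNCR1 cons a, IL24 without SLNCR1 delta cons b, and IL8 without SLNCR1 delta cons b, SLNCR1 cons a or SLNCR1 cons b.

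Lists of stress genes held calls as well. Of 27 p53 targets 13 were called higher, with a median of 0.25. SESN1, a stress-induced inhibitor of mTORC1 signalling, stood at 350.1 and 375 normalized reads with SLNCR1 cons and 218 and 251 with SLNCR1 delta cons (log2 difference 0.63 ± 0.10, SE, limma adjusted p = 0.000568), and FAS, a death receptor, differed by 0.56 and PMAIP1, or NOXA, by 0.49. CDKN1A, the cell cycle inhibitor p21 and the best known p53 target, stood at 2188 and 2356 against 2405 and 2561 and was not called (log2 difference -0.13 ± 0.08, SE, limma adjusted p = 0.362), and neither were MDM2, GDF15 and BAX. The count was 6 to 7 without SLNCR1 delta cons a, SLNCR1 cons a or SLNCR1 cons b. Of 32 genes of the ATF4 stress response 8 were called higher and VLDLR lower (-0.51, limma adjusted p = 0.0272). CHAC1, which degrades glutathione, stood at 251 and 253 against 146 and 114 (log2 difference 0.96 ± 0.13, SE, limma adjusted p = 0.000155) and DDIT3, or CHOP, at 554 and 581 against 351 and 356 (log2 difference 0.68 ± 0.11, SE, limma adjusted p = 0.000552). CTH (1.17), SLC7A11 (0.55), ASNS (0.53) and ALDH1L2 (0.41) completed the amino acid genes called, while PSAT1, PHGDH and ATF4 itself were not. Of 22 endoplasmic reticulum chaperones and folding genes HERPUD1 was called higher and 0 lower (0 also by limma voom), and HSPA5, DNAJB9 and HSP90B1 were not called. The median of this list was -0.12, 16 of its 22 genes lay below 0, and at p under 0.05 before adjustment limma gave 8 lower and 2 higher.

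Histone genes in the comparison were higher with SLNCR1 cons in the poly(A)-selected RNA. Of 56 listed replication-dependent histone genes 29 were fitted with limma, and 15 reached the level needed to enter the comparison. Of these 15, 12 were called higher, with a median of 0.94. The other fitted histone genes are not in this count or median. A gene could enter through the construct in which it was higher, and the part of this cut in the count and median was not tested. Most replication-dependent histone mRNAs end in a stem loop and not in a poly(A) tail. HIST2H2BE had 249 and 263 normalized reads with SLNCR1 cons, 101 and 121 with SLNCR1 delta cons, 247 and 201 with vector and 102 and 118 with full-length SLNCR1 (log2 difference 1.20 ± 0.14, SE, limma adjusted p = 2.1e-05). HIST1H2BD stood at 220.0 and 212 against 82.3 and 83.3 (log2 difference 1.37 ± 0.13, SE, limma adjusted p = 1.68e-06) and the linker histone HIST1H1C at 534 and 597 against 372 and 394 (log2 difference 0.56 ± 0.09, SE, limma adjusted p = 0.000831). HIST1H2BK, HIST1H2BJ and HIST1H3H were not called. Copies of these genes are near-identical, so reads can be split between them. Among 39 S phase genes and 38 genes of G2 and mitosis limma and limma voom each called 0, with medians of -0.05 and -0.07. At p under 0.05 before adjustment limma gave 1 S phase gene and 6 genes of G2 and mitosis, all lower with SLNCR1 cons. PCNA, MCM2, CCNE2 and CDK1 were thus not called where histones were.

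In the other direction, part of the hypoxia and glycolysis genes were higher with SLNCR1 delta cons. Of 34 genes 17 were called in that direction, with a median of -0.22. ANGPTL4, a secreted lipase inhibitor induced by HIF, had 358 and 287 normalized reads with SLNCR1 delta cons, 184 and 134 with SLNCR1 cons, 94.7 and 224 with vector and 190.2 and 162 with full-length SLNCR1. The SLNCR1 delta cons libraries were the highest, and the vector libraries differed from each other by more than 2-fold. The difference of -1.02 ± 0.26 (SE, limma adjusted p = 0.0194) was lost without SLNCR1 delta cons a or b or SLNCR1 cons b. CA9, carbonic anhydrase IX, showed the same spread, with 198 and 362 in vector, 529 and 433 with SLNCR1 delta cons and 345 and 260.0 with SLNCR1 cons. NDRG1 stood at 2664 and 2562 against 1808 and 1646 (log2 difference -0.60 ± 0.09, SE, limma adjusted p = 0.000476) and PFKFB4, a regulator of glycolysis, at 2009.5 and 1898 against 1439 and 1358 (log2 difference -0.48 ± 0.07, SE, limma adjusted p = 0.000256), and both kept their call in all 16 alternatives.

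Steps of glycolysis differed by small and like amounts. LDHA stood at 2675 and 2960.0 normalized reads with SLNCR1 delta cons and 2199 and 2349.8 with SLNCR1 cons (log2 difference -0.31 ± 0.07, SE, limma adjusted p = 0.0147), and PGK1 at 3400.4 and 3549 and 2764 and 2848 (log2 difference -0.31 ± 0.07, SE, limma adjusted p = 0.00926). GPI, ALDOA, TPI1, GAPDH, ENO1 and PKM lay between -0.29 and -0.24. VEGFA (log2 difference 0.05 ± 0.08, SE, limma adjusted p = 0.761) and ADM (log2 difference -0.05 ± 0.08, SE, limma adjusted p = 0.787), which HIF also induces, were not called, nor was the glucose transporter SLC2A1. The number called was 3 to 6 when any 1 of the 4 construct libraries was left out. Vector library a was the lowest of the 8 in 16 of the 17 called genes. The letters ACGTG, the core of the HIF site, which also lie within the E-box, were in 11 of 16 promoters of the called genes, in 3 of 14 of those not called and in 21.4% of all promoters. They were also in 9 of 11 promoters of the clock repressors, which were higher with SLNCR1 cons where called, and in 27.1% of the promoters of all compared genes that were not called.

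Abundant housekeeping transcripts leaned the same way by small amounts. Of 77 cytosolic ribosomal protein genes 7 were called lower with SLNCR1 cons, with a median of -0.18, and 0 were called when any 1 of the 4 construct libraries was left out. Of 71 nuclear genes for oxidative phosphorylation subunits 0 were called by limma or by limma voom, with a median of -0.15, while 21 were lower and 1 higher at p under 0.05 before adjustment. Of 13 mitochondrially encoded genes 10 were called lower, with a median of -0.30 and 0 to 4 called without a construct library, beside the mitochondrial read shares given above. MT-CO1, a subunit of cytochrome oxidase, had 2007 and 2244 normalized reads with SLNCR1 delta cons, 1611 and 1804 with SLNCR1 cons and 1463 and 1610.5 with vector (log2 difference -0.32 ± 0.08, SE, limma adjusted p = 0.0202). With trimmed-mean scaling, which moved the median of all genes from -0.01 to 0.02, the counts were 3 ribosomal and 6 mitochondrial genes. Iron and redox genes of the NRF2 list split, with FTH1 and FTL, the ferritin chains, and AKR1C1 (log2 difference -0.63 ± 0.11, SE, limma adjusted p = 0.00103), AKR1C3 and PRDX1 lower (5 calls, 1 or 2 without a construct library) and OSGIN1, SLC7A11 and SLC30A1 higher.

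**Figure D4:**
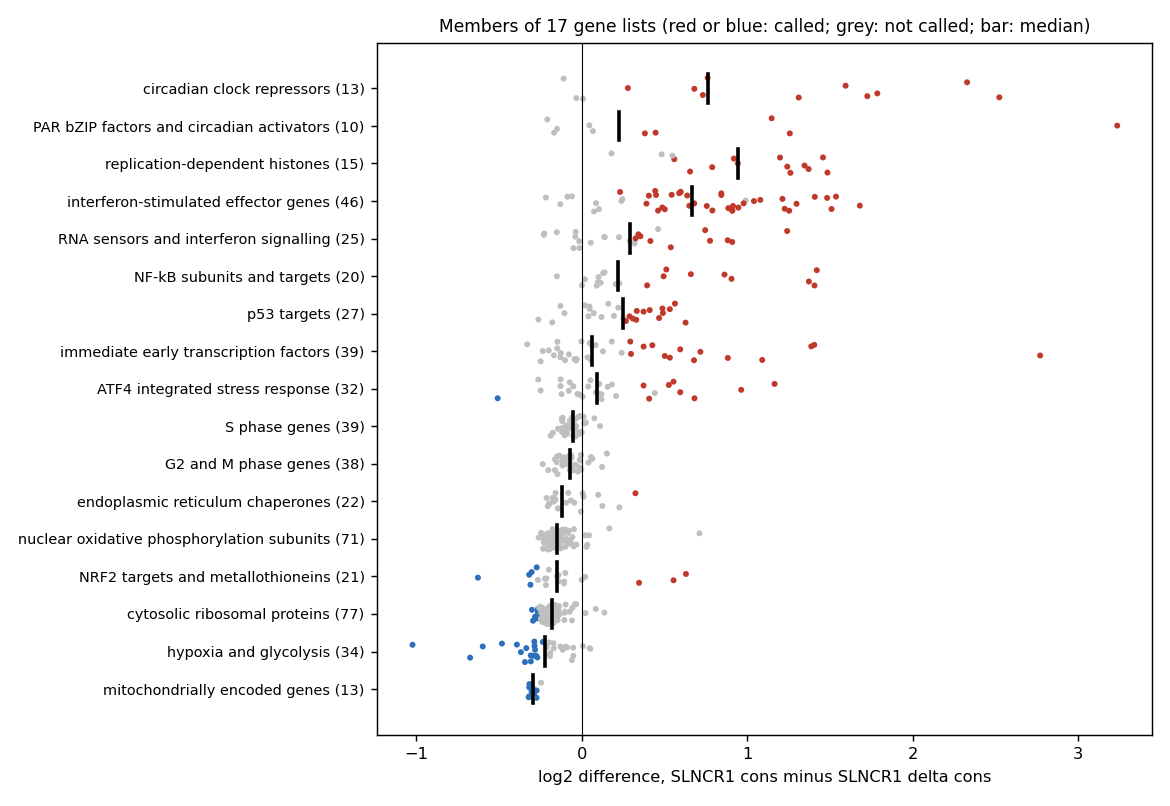
Each point is the log2 difference (SLNCR1 cons minus SLNCR1 delta cons, limma) of 1 gene of 17 lists, red where called higher, blue where called lower and grey where not called, with a bar at the list's median. Clock, histone and interferon lists lie to the right of 0 and hypoxia, ribosomal and mitochondrial lists narrowly to the left.

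Some matrix and cytoskeleton genes were called lower with SLNCR1 cons. FN1, fibronectin, had 1991 and 1763 normalized reads with SLNCR1 delta cons, 1260.5 and 1044 with SLNCR1 cons, 1017 and 1336 with vector and 1216 and 917 with full-length SLNCR1 (log2 difference -0.71 ± 0.13, SE, limma adjusted p = 0.00167), and it lost its call without SLNCR1 delta cons a. SPP1 (-0.45), COL6A3 (-0.34) and SPARC (-0.28) were the other called members of 43 extracellular matrix genes, and 1 to 20 were called over the alternatives. COL1A1, a member of this list and low in SLNCR1 cons library b as given above, was not called. Of 30 actin and SRF target genes ACTB, ACTG1, CFL1, PFN1 and TAGLN2 were lower, with 0 of these calls left without any 1 of the construct libraries, and ACTA2, smooth muscle actin, was higher (0.51). The ACTA2 call (limma adjusted p = 0.048) was near the threshold and was lost with limma voom. In the TGF-beta and BMP list INHBE, KLF10 and SKIL were higher and PMEPA1, TGFBI and LTBP3 lower. FER1L4, a noncoding pseudogene, at 559.7 and 477 with SLNCR1 delta cons against 347 and 305 with SLNCR1 cons (log2 difference -0.67 ± 0.09, SE, limma adjusted p = 0.000171), and AKR1C1 were the 2 of the 15 largest lower genes that kept their calls in all alternatives. The others, among them IGFBP3 (-0.64), NRN1 (-0.74), PPFIA4 (-0.75), SHANK1 (-0.76) and MIR210HG (-0.72), the host of a hypoxia-induced microRNA, lost theirs in at least 1.

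Genes tied to SLNCR1 and to invasion were read directly. MMP9, below the level needed to enter the comparison, had 20.5 and 14.0 normalized reads with SLNCR1 cons, 5.56 and 8.84 with SLNCR1 delta cons, 8.1 and 9.77 with vector and 23.1 and 18.8 with full-length SLNCR1. The constructs did not overlap, as in 30.1% of genes compared in that direction, and the difference of 1.16 ± 0.39 (SE) was not called (limma adjusted p = 0.0838). POU4F1 stood at 80.2 and 96.0 against 115 and 115 (log2 difference -0.38 ± 0.16, SE, limma adjusted p = 0.168) and SRA1 at 783 and 879 against 695 and 715 (log2 difference 0.23 ± 0.07, SE, limma adjusted p = 0.0703), and neither was called. Of 19 metalloproteinases and inhibitors MMP19 was higher, with 555 and 556 reads against 159 and 145, 504 and 436 with vector and 159 and 162 with full-length SLNCR1 (log2 difference 1.86 ± 0.10, SE, limma adjusted p = 1.5e-09). MMP2, MMP14 and TIMP1 were lower by -0.26, -0.26 and -0.28, and each lost its call whichever of the 4 construct libraries was left out. Of 20 androgen-responsive genes PER1 and ZBTB10 were higher and NDRG1 and PMEPA1 lower.

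Of 16 genes of the melanocyte lineage 2 were called, both higher with SLNCR1 cons, against 6.87% of all genes compared. MITF, its master transcription factor, had 791 and 755 normalized reads with SLNCR1 cons, 556 and 626 with SLNCR1 delta cons, 734 and 697 with vector and 670.3 and 539.7 with full-length SLNCR1, and the difference was 0.39 ± 0.09 (SE, limma adjusted p = 0.0157). Its call was lost without SLNCR1 delta cons a, SLNCR1 cons a or SLNCR1 cons b. PPARGC1A, a coactivator that MITF drives in melanoma, stood at 106 and 120.0 against 57.9 and 55.6 (log2 difference 0.98 ± 0.22, SE, limma adjusted p = 0.00836) and lost its call without SLNCR1 delta cons a or b or SLNCR1 cons b. The other 14 lineage genes, SOX10 and PAX3 among them, were not called. Of 24 genes of the dedifferentiated state ZEB2 was higher (0.56) and VIM (-0.27) and FN1 lower, while AXL, EGFR and NGFR were not called.

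Vector and full-length SLNCR1 served to place the difference between the constructs. For each called gene the position of a group was read on a log2 scale on which SLNCR1 delta cons is 0 and SLNCR1 cons is 1, with the same libraries that gave the call. Among the 872 genes higher with SLNCR1 cons, vector lay nearer to SLNCR1 cons in 803, with a median position of 0.82, and full-length SLNCR1 nearer to SLNCR1 delta cons in 849, with a median position of -0.03. Among the 177 lower genes vector lay nearer to SLNCR1 cons in 155 and full-length SLNCR1 nearer to SLNCR1 delta cons in 145, with median positions of 1.16 and 0.34. Vector thus mostly lay on the side of the conserved region alone, and the full-length RNA on the side of the RNA without it. These counts describe the called genes and were not tested. Depth and mitochondrial share split the 4 groups in the same way and cannot be told apart from this placement.

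**Figure D5:**
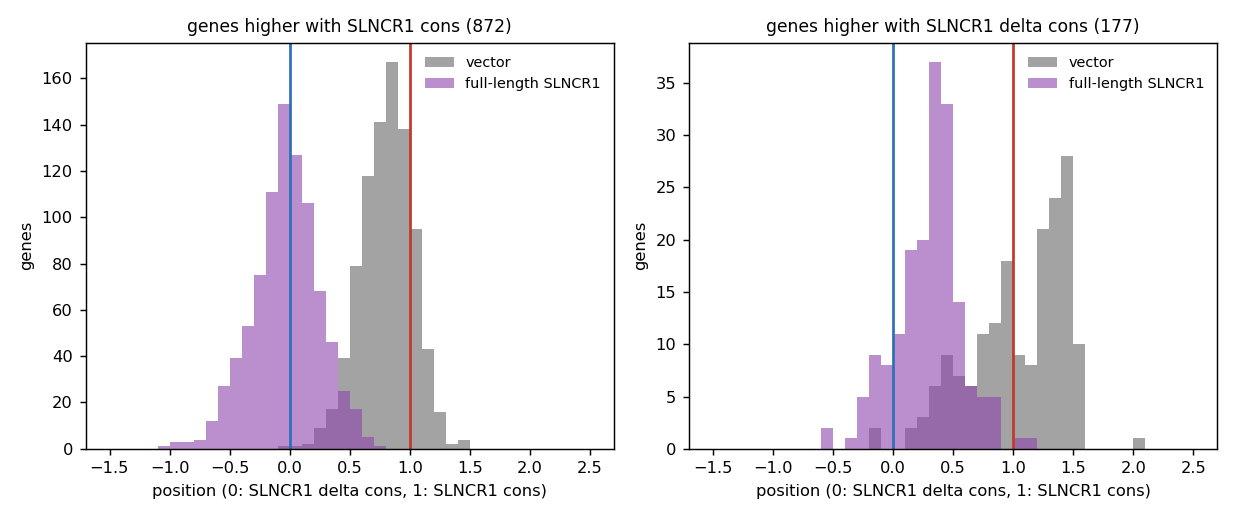
The number of called genes is plotted by the position of vector (grey) and full-length SLNCR1 (purple) between SLNCR1 delta cons (0, blue line) and SLNCR1 cons (1, red line). For the 872 genes higher with SLNCR1 cons (left) full-length SLNCR1 is centred near 0 and vector near 0.82, and for the 177 lower genes (right) both are spread more widely.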

How the data were processed

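RNA-seq of 8 libraries (4 groups of 2) was deposited as 3 tables of 56638 entries, 1 for each construct against vector. The submitters' processing notes name the aligner STAR, featureCounts, DESeq and the build hg19, without versions, settings or annotation. The library kit named in the labels' protocols (NEBNext Ultra) does not mark strand, so overlapping antisense genes cannot be told apart. The deposited signal is the authors' group mean of reads divided by size factors, and its p-values come from the authors' test against vector, run separately for each table.

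Each library adds whole multiples of its own step to a group mean, so single-library reads were solved from the means, with a single solution for 99.98% to 100% of genes with reads per group. Reads were normalized by median-of-ratios size factors over 8 libraries. The 16045 genes with a mean of at least 10 were fitted with limma 3.58.1 (R 4.3.3) on log2(normalized reads + 1) over all 4 groups (4 residual degrees of freedom, trend, Benjamini-Hochberg, two-sided), which understates changes of low genes. The step was tested on simulated data. The remaining steps used Python 3.11.15 (numpy 2.4.6, pandas 2.3.3) and figures matplotlib 3.10.9.

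The members and the 35 gene lists were chosen with earlier results of these data known. Genes that could be named were LINC00511, MMP9, POU4F1, EGR1, CDKN1A, SRA1 and MITF, the 15 largest differences each way among called genes with a reference symbol, and members of the lists. Of the 12710 genes compared, 89.4% had a reference name. The 16 alternatives covered other scalings, filters, pseudocounts, limma voom, a fit over the 2 constructs alone and leaving out each library.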

Additional observations from a re-analysis of the deposited data

How the results depend on the processing

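The main counts were 872 genes higher with SLNCR1 cons and 177 lower. A fit over the 2 constructs alone gave 1814 and 1221, and trimmed-mean scaling gave 112 lower genes. Leaving out each library in turn gave 377 to 1412 higher and 22 to 719 lower genes; the lowest came from leaving out a library of the compared constructs, where the lone library is assumed to vary like the other groups, and the highest from leaving out an SLNCR1 library. The share of calls on the higher side was 83.1%, and 80.1% with library totals and 90.0% with trimmed-mean scaling. Of the authors' differences, 206 lay above 1 and 9 below -1 with a minimum mean of 20, and 54 above 1 with a minimum of 200. The log2 difference of LINC00511, 0.13 and not called, ran from -0.079 (limma adjusted p = 0.719) without SLNCR1 delta cons library b to 0.33 without its library a. Of 307 called genes that could be named, 126 kept their call in all 16 alternatives, 181 lost it in at least 1 and 0 changed direction. No paired analysis was possible because the group means do not show which solved library carries which replicate number. With 2 libraries a group, small differences of low genes were not detectable.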

Other observations

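Zinc finger genes with numbered ZNF symbols were chosen for a look after their values were seen, and so carry no test as a set. Of 400 compared, 89 were called higher with SLNCR1 cons and 1 lower (ZNF469), with a median log2 difference of 0.20 against -0.01 for all genes. ZNF79 had the largest difference, 1.73 ± 0.13 (SE, limma adjusted p = 5.85e-08), with 499 and 503 normalized reads with SLNCR1 cons, 147 and 153 with SLNCR1 delta cons, 454 and 474 with vector and 185 and 131 with full-length SLNCR1. ZNF441 (1.45) and ZNF844 (1.33) followed. In 238 of the 400 both SLNCR1 delta cons libraries lay below both vector libraries (25.8% of all genes did) and in 89 both SLNCR1 cons libraries lay above them (28.6%). The number called higher was 35 to 174 over the alternatives, the lowest without a library of the compared constructs. These genes are near-identical in part, and the sources used here do not say how shared reads were counted.

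Some heat shock and sterol genes were called, against 6.87% higher and 1.40% lower over all genes compared. Of 24 heat shock genes HSPA4L (0.57), DNAJB4 (0.50) and HSF2, a heat shock transcription factor (0.39), were higher with SLNCR1 cons, HSPA8, the constitutive HSP70, was lower (-0.26), and the inducible HSPA1A and HSPA1B were not called. Of 23 cholesterol genes HMGCS1, an early enzyme of sterol synthesis, was higher (0.28, limma adjusted p = 0.0398), and it lost its call with a filter at a mean of 1. Of 25 nuclear and host-gene long noncoding RNAs SNHG15 was higher (0.37) and MIR210HG lower, and MALAT1 and NEAT1 were not called.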
